A study of Mus musculus with 12 samples.

Results

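The cytosolic ribosome of the mouse is built from ribosomal RNA and a set of ribosomal proteins, named Rpl for the large subunit and Rps for the small subunit. Their messages are among the most abundant of a cell. Most carry a stretch of pyrimidines at the very start of the transcript, the terminal oligopyrimidine or TOP sequence, through which mTORC1 and the RNA-binding protein Larp1 set how many of them are on ribosomes. Rods renew part of their outer segment every day, which makes protein synthesis a constant load on these cells. A ribosomal protein is also the handle with which rod messages were collected here.

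The genes were taken by symbol from the deposited table of scaled counts, read counts that the authors had multiplied by 1 factor per library. Members had a symbol of the form Rpl, Rps, Rplp or Rpsa, were neither named as pseudogenes nor ribosomal S6 kinases, and had at least 10 scaled counts in at least 3 of the 12 libraries. Of 94 such symbols, 88 met the level, among 56748 entries of the table, of which 17273 met it. They comprised 46 genes of the large subunit, 31 of the small subunit, 8 paralogs (Rpl7l1, Rpl22l1, Rpl37rt, Rps4l, Rps27l, Rps27rt, Rps3a2 and Rps3a3) and 3 further symbols. GENCODE M21 lists Rps3a2 and Rps3a3 as processed pseudogenes of Rps3a1, at 99.5% and 99.0% identity, and the symbol rule kept them. The 3 further symbols were Rps23rg1, Rpl6l and Rps19bp1, which encodes a nucleolar binding partner of a ribosomal protein rather than a ribosomal protein. Just inside the level, the highest 3 libraries reached at least 11 scaled counts for Rps23rg1 and 29 for Rps10. Just outside it, they reached at least 8 for Rpl32l and 4 for Rpl36al, while Rpl3l, Rpl39l, Rpl10l and Rps12l1 stood at 2 or fewer.

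The study sequenced RNA from 2-month-old littermate mice in 4 groups of 3 libraries. Control mice were RiboTag;i75-Rod-Cre and knockout mice RiboTag; Abca4-/-;i75-Rod-Cre. Both genotypes thus carried the RiboTag allele, which gives an HA-tagged Rpl22 protein after Cre recombination, and i75-Cre, which is driven by the rhodopsin promoter and so acts in rods, and they differed in Abca4, the retinoid transporter of photoreceptor outer segment discs. From each genotype, translating ribosome affinity purification gave the messages bound to tagged ribosomes (rod TRAP), and the lysate before purification gave whole retina. Litters were combined, and the labels do not say that the libraries of a group came from separate animals, so p-values measure the spread between these libraries only. Since rod TRAP holds ribosome-bound messages of rods and the lysate all messages of all retinal cells, cell type and ribosome association cannot be told apart, nor can fewer cells and less RNA per cell.

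Rods were present as labelled. All 12 rod markers tested were higher in rod TRAP than in retina, in both genotypes, with a median log2 fold change of 1.24 in control. Markers of other cells were mostly lower in control rod TRAP, with 7 of 8 lower for Müller glia (median −4.77) and 8 of 8 for cones (median −1.50). For bipolar cells 6 of 8 were lower and 2 higher. Lower were 7 of 7 markers of amacrine cells, 7 of 7 of ganglion cells, 7 of 7 of microglia and 3 of 3 of blood. So were 5 of 6 for vascular cells and 5 of 6 for pigment epithelium. Many of these markers had too few scaled counts in rod TRAP. Over the rod TRAP libraries of both genotypes, the level was met by 0 of 7 microglia and 2 of 3 blood markers. It was met there by 3 of 6 vascular, 2 of 6 pigment epithelium and 6 of 7 amacrine markers. The others met it only through retina and had to be lower, so they are no check of the labels. Of the 4 lens markers none was called, although their median was −4.01. The libraries labelled Abca4 knockout replicate 3 went against their label. Abca4 stood at 195, 365 and 13156 scaled counts in knockout rod TRAP and at 61017, 53193 and 53533 in control, and at 153, 366 and 8124 in knockout retina and 37619 to 38929 in control. Genotype results are therefore also given without these libraries. The libraries labelled knockout replicate 1 stood apart for the ribosomal protein genes themselves, with the highest value of their group for 79 of 88 members in rod TRAP and 81 of 88 in retina. In retina, mitochondrially encoded genes took 5.70% of the scaled counts of that library and 1.84% to 3.17% of the other 5. Lens markers varied from 18.3 to 25864 TPM in sum between the retina libraries, and their part in the results was not tested.

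Sequences around the transcript start show what the TOP messages have in common. A RefSeq table of start sites on GRCm38.p6 held 57 of the 77 subunit genes. For 21 of them, 36.8%, a run of at least 5 pyrimidines that holds a C as its first or second base covered the start or the base after it, within 5 bases on either side. This was so for 12.2% of all 27025 genes of the table and for 7 of 69 mitochondrial ribosomal protein genes, 10.1%. The windows of 30 bases below begin 15 bases before the annotated start. They show 4 members whose messages were lower in rod TRAP than in retina, with the run in capitals. The fall of Rplp2 depended on how its copy was counted, as given with the stalk genes. Rpl4 and Rpl5, which were not lower, are also shown and had no run by this rule. The window of Rpl4 opens with pyrimidines that end before the start and so fall outside the rule. Of the 36 subunit genes without a run, 29 were lower in control rod TRAP as well. All windows are given in the direction of transcription.
Rps10, chr17:27635230-27635259, minus strand: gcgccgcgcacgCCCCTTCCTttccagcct
Rps27, chr3:90213634-90213663, minus strand: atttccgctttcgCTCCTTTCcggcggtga
Rps21, chr2:180257364-180257393, plus strand: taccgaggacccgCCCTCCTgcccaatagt
Rplp2, chr7:141447636-141447665, plus strand: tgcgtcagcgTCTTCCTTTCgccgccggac
Rpl4, chr9:64173372-64173401, plus strand: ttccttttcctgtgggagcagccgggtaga
Rpl5, chr5:107900513-107900542, plus strand: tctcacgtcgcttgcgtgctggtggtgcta
Rps21 has a second annotated start, without such a run. An annotated start may lie some bases from the start in use in the retina, and a match is a description of these letters only.

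As a sum, the 88 members held a smaller share of rod TRAP than of retina in every library. In control rod TRAP they took 0.770%, 0.741% and 0.835% of the scaled counts, and in control retina 2.15%, 1.69% and 2.18%. In knockout rod TRAP they took 1.05%, 0.848% and 0.815%, and in knockout retina 2.43%, 1.87% and 1.57%. The groups of the 2 fractions did not overlap in either genotype, and the mean in rod TRAP was 38.9% of that in retina in control and 46.1% in knockout. In TPM, a share of transcripts per length, the sums were 33648 ± 1998 in control rod TRAP, 37242 ± 3070 in knockout rod TRAP, 75343 ± 7529 in control retina and 71028 ± 9950 in knockout retina (SD, n = 3 each). By TPM, rod TRAP held 44.7% of the retina level in control and 52.4% in knockout. These are shares of a total, and a share also falls where other genes take more of it. The rod markers summed to 226598 ± 9439 TPM in control rod TRAP and 119633 ± 7588 in control retina (SD, n = 3). The median of all genes under the authors' scaling alone was also below 0, as given with the fraction comparisons. For comparison, mitochondrial ribosomal proteins, whose genes are also nuclear, summed to 4502 ± 9.33 TPM in control rod TRAP and 5704 ± 338 in control retina (SD, n = 3). Between genotypes, the share in knockout was 115.5% of control in rod TRAP and 97.5% in retina. The highest knockout library was replicate 1 in both fractions, and the other 2 knockout libraries of rod TRAP, at 0.848% and 0.815%, stood beside the highest control library at 0.835%.

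**Figure D1:**
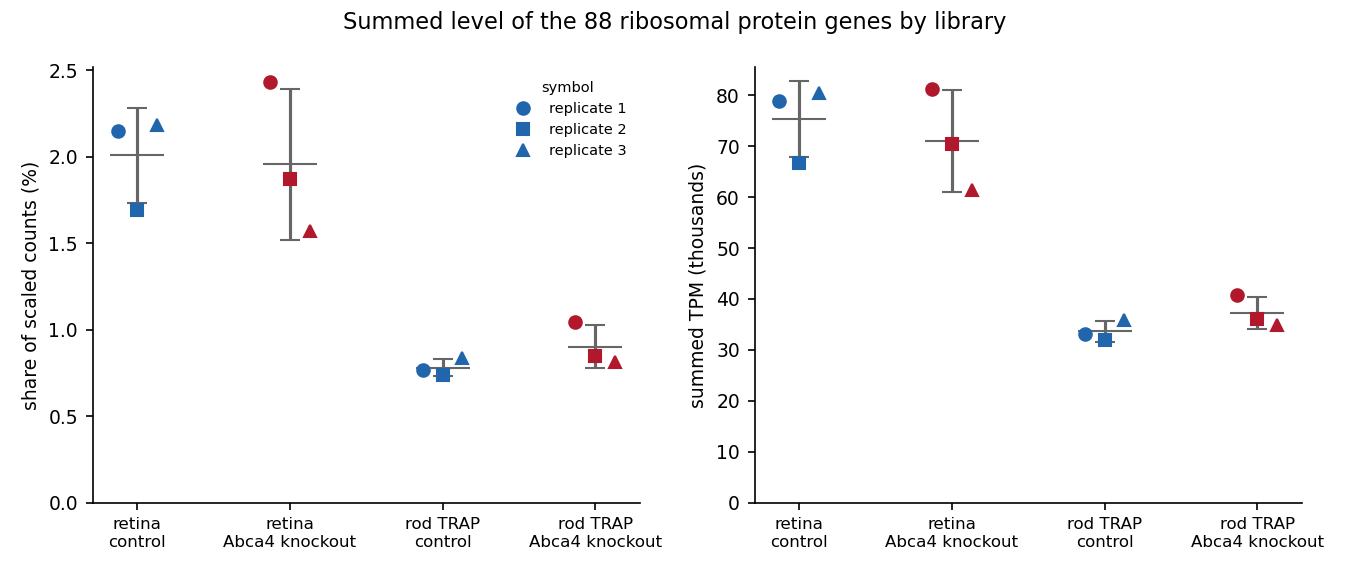
Summed level of the 88 ribosomal protein genes in each of the 12 libraries, as a share of scaled counts in percent (left) and as summed TPM (right, axis divided by 1000). Points are libraries, with a symbol for each replicate number, and bars give the mean and SD of 3 libraries. All rod TRAP libraries lie below all retina libraries in both panels, and knockout replicate 1 is the highest library of its group.

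Levels per gene were compared in TPM only, since it is corrected for length. The highest members, averaged over the 12 libraries, were Rps15, Rps24, Rpl13a, Rplp1 and Rps27rt. Rps15, a small subunit protein near the decoding centre, stood at 1149 ± 88.3 TPM in control rod TRAP and 2728 ± 316 in control retina (SD, n = 3). Rps24, also of the small subunit, stood at 1144 ± 85.1 and 2268 ± 362 TPM, which overlap with the spread of Rps15 in both fractions. Rplp1, an acidic protein of the stalk that recruits elongation factors, stood at 709.8 ± 40.02 TPM in control rod TRAP and 2332 ± 287 in control retina. The lowest 5 members were Rps27, Rps3a3, Rpl12, Rps23rg1 and Rpl6l. Rpl6l did not exceed 1.2 TPM in any library, and Rps23rg1 did not exceed 1.3 TPM. The low place of Rps27 and Rpl12, both core subunit genes, was not shared by the scaled counts, as described with the near copies. Nor was the high place of Rpl13a and Rps27rt, which had means of 297 and 206 scaled counts over the 12 libraries.

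**Figure D2:**
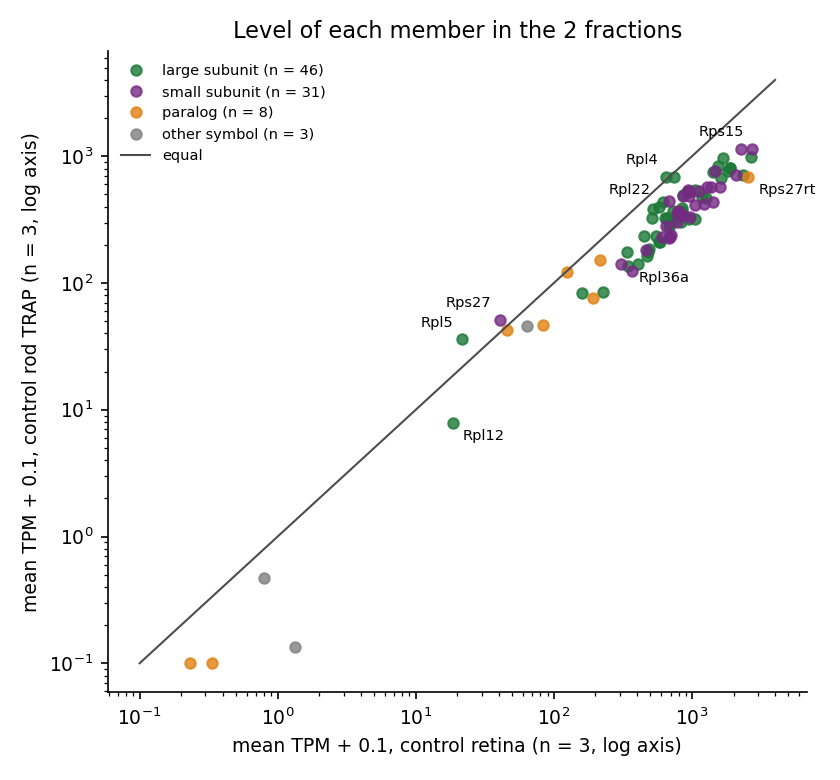
Mean TPM of each of the 88 members in control rod TRAP (vertical, log axis, 0.1 added) against control retina (horizontal, log axis, 0.1 added), with colours for subunit lists, paralogs and other symbols and a line of equality (n = 3 libraries per mean). Most points lie below the line, Rpl4 and Rpl5 lie on or above it, and Rpl12, Rps27 and Rpl5 lie far below the other subunit genes on both axes.

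To see how ribosomal protein messages stand in rod ribosomes against the whole retina, rod TRAP was compared with retina in control mice, on the log2 scale of CPM, scaled counts set relative to the rescaled library total. Folds used a rescaling within the libraries of their own fit. Printed CPM and counts of overlap used 1 rescaling over all 12 libraries, so a fold need not equal the ratio of printed CPM. Most members were lower in rod TRAP, and few were higher. Of 87 members tested, 71 were lower at a Benjamini-Hochberg adjusted p under 0.05 (limma, as for all adjusted p given), 81.6%, where 38.8% of all 16286 genes tested were lower. Only Rpl4, Rpl5 and Rps4l were higher, where 36.6% of all genes were higher. The median log2 fold change was −0.90 over the members and −0.03 over all genes, and members ranged from −1.55 to 0.40. The libraries of the 2 fractions did not overlap for 75 members on the lower side (43.1% of all genes) and for 1 member, Rpl4, on the higher side (36.7% of all genes). Under the authors' scaling alone, which moved the median of all genes to −0.62, 85 members were lower and none was higher. On the log2(TPM + 1) scale, 79 of 85 were lower and 1 was higher.

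The small subunit was lower almost throughout. Of its 31 genes, 30 were lower, with a median of −1.0, and the remaining gene, Rps3a1, had a log2 fold change of −0.29 (adjusted p = 0.0731). On the log2(TPM + 1) scale Rps3a1 was lower, at −0.63 (SE 0.10, adjusted p = 0.000245). Rps10, a protein of the head of the subunit, is 1 of the 30 but had 1, 4 and 3 scaled counts in rod TRAP and 51, 28 and 23 in retina. It met the level only through retina and had to differ, so its value in scaled counts, −1.50, is given with no test. On the TPM scale Rps10 stood at 387, 412 and 471 in rod TRAP and 1229, 1093 and 1368 in retina, a log2(TPM + 1) fold change of −1.54 (SE 0.11, adjusted p = 5.67e-07). Rps27, which carries a zinc-binding motif, had 52.9, 61.3 and 68.8 CPM in rod TRAP and 189, 137 and 210.0 CPM in retina. Its log2 fold change was −1.44 (SE 0.17, adjusted p = 4.29e-06), with every rod TRAP library well below every retina library. On the log2(TPM + 1) scale this call was lost, at −0.38 (SE 1.28, adjusted p = 0.81), with 34.6, 114 and 5.1 TPM in rod TRAP and 49.6, 19.0 and 53.5 TPM in retina. Rps21, among the shortest proteins of the subunit, had 48.3, 44.7 and 53.8 CPM in rod TRAP against 152, 102 and 156 CPM in retina. Its log2 fold change was −1.37 (SE 0.17, adjusted p = 6.78e-06). Rpsa, homolog of a laminin receptor, had 242, 254 and 277 CPM in rod TRAP and 597, 444 and 674 CPM in retina, a log2 fold change of −1.04 (SE 0.15, adjusted p = 3.89e-05).

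The large subunit was more divided. Of its 46 genes, 38 were lower, 2 were higher and the median was −0.88. Rpl32, a core protein of the subunit, had 54.3, 57.8 and 71.5 CPM in rod TRAP and 192, 128 and 194 CPM in retina. Its log2 fold change was −1.38 (SE 0.17, adjusted p = 9.61e-06), and the lowest retina library stood well above the highest rod TRAP library. Rplp1 had 122, 121 and 134 CPM in rod TRAP and 373, 269 and 408 CPM in retina, a log2 fold change of −1.37 (SE 0.15, adjusted p = 3.43e-06). The other stalk genes fell less, with −0.92 (SE 0.16, adjusted p = 0.000201) for Rplp0, the base of the stalk, and −0.85 (SE 0.15, adjusted p = 0.000209) for Rplp2, the partner of Rplp1. That these folds differ among stalk genes was not tested. With the counts of a near copy of its sequence added, Rplp2 stood at −0.11 (SE 0.14, adjusted p = 0.484). That copy held 48.6% of the summed counts in control rod TRAP and 12.4% in control retina. On the log2(TPM + 1) scale, Rplp2 stood at −1.23 (SE 0.12, adjusted p = 5.29e-06). Rpl37, a reference gene in a quantitative PCR assay of the study, had 45.9, 40.8 and 45.6 CPM in rod TRAP and 123, 84.7 and 122 CPM in retina. It fell by 1.20 on the log2 scale (SE 0.16, adjusted p = 1.22e-05).

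The 3 rises were small and depended on scale. Rpl4, a long protein that lines the exit tunnel, had 612, 553 and 599.5 CPM in rod TRAP and 551, 444 and 435 CPM in retina, a log2 fold change of 0.40 (SE 0.12, adjusted p = 0.0105). Rpl5, which binds the 5S ribosomal RNA, had 216, 200.3 and 219 CPM in rod TRAP and 209.7, 151 and 162 CPM in retina, a log2 fold change of 0.38 (SE 0.14, adjusted p = 0.02204). Retina replicate 1 overlaps with rod TRAP for Rpl5 but not for Rpl4. Rps4l, a paralog of Rps4x, had a log2 fold change of 0.31 (SE 0.13, adjusted p = 0.0488). Under the authors' scaling alone the same 3 genes had −0.25, −0.26 and −0.33. Without control retina replicate 2, none of the 3 passed the threshold, with adjusted p of 0.06996 for Rpl4, 0.161 for Rpl5 and 0.175 for Rps4l. On the log2(TPM + 1) scale, Rpl4 stood at 0.08 (SE 0.11, adjusted p = 0.523), Rpl5 at 0.75 (SE 0.18, adjusted p = 0.00346) and Rps4l at −0.04 (SE 0.12, adjusted p = 0.773). Leaving out any other single library kept the call of Rpl4. Rpl5 also lost it without rod TRAP replicate 1 (0.0689) or 3 (0.0788) or retina replicate 3 (0.0783), and Rps4l without any library but retina replicate 3 (0.0863 to 0.175).

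Rpl22 was looked at because its tagged protein is the handle of the pull-down. It had 116, 101 and 112 CPM in control rod TRAP and 143, 108 and 129.6 CPM in control retina. The fractions overlapped, and the log2 fold change was −0.12 (SE 0.13, adjusted p = 0.441). Rpl22 was thus among the 7 subunit genes not called in either direction in scaled counts. The others were Rpl7, Rpl10a, Rpl21, Rpl23, Rpl24 and Rps3a1, with log2 fold changes from −0.35 to 0.19. Its paralog Rpl22l1 had −0.27 (SE 0.19, adjusted p = 0.228). In TPM, Rpl22 stood at 399.7 ± 44.9 in control rod TRAP and 575 ± 71.02 in control retina, and Rpl22l1 at 151 ± 19.2 and 215 ± 42.7 (SD, n = 3). On the log2(TPM + 1) scale both were lower, Rpl22 at −0.52 (SE 0.12, adjusted p = 0.00238) and Rpl22l1 at −0.49 (SE 0.15, adjusted p = 0.0128). Rpl10a, Rpl21, Rpl23, Rpl24 and Rps3a1 were also lower on that scale, from −0.83 to −0.44 (adjusted p of 0.00413 or less). Rpl7 was not called there, at −0.10 (adjusted p = 0.38). Of the 8 paralogs, 1 was higher and 2 were lower in scaled counts, with a median of −0.38. The 2 that were lower were Rps27rt at −1.55 (SE 0.21, adjusted p = 1.98e-05) and Rpl37rt at −1.03 (SE 0.18, adjusted p = 0.000177), both retrogenes of another member. Rpl7l1, a relative of Rpl7, had 0.13 (SE 0.12, adjusted p = 0.345), and Rps27l had −0.44 (SE 0.21, adjusted p = 0.0745). The X-linked members fell like the rest, with log2 fold changes of −1.26 for Rpl10, −1.16 for Rpl39, −0.95 for Rpl36a and −0.90 for Rps4x.

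In Abca4 knockout mice the direction was the same, with fewer calls and wider spread in the fit without pairing. Of 88 members tested, 53 were lower, 60.2%, where 33.7% of all 16036 genes tested were lower, and none was higher, where 30.4% of all genes were higher. In either direction, 55 members had an unadjusted p under 0.05, as did 10780 of all 16036 genes tested. The median was −0.69 over members and 0.00 over all genes, and the median SE of a member was 0.24, against 0.15 in control. The libraries did not overlap for 43 members on the lower side (35.7% of all genes) and for 1, Rpl7l1, on the higher side (33.7% of all genes). Of the large subunit 28 of 46 were lower and of the small subunit 23 of 31. Rps10 is again among those counted and met the level only through retina, with 1, 1 and 4 scaled counts in rod TRAP and 26, 39 and 29 in retina. Of the other members, Rpl12 fell most, at −1.18 (SE 0.27, adjusted p = 0.00282). Rpl12, at the base of the stalk, had 84.3, 67.8 and 51.6 CPM in knockout rod TRAP and 234, 135 and 109 CPM in knockout retina. Rps12, a small subunit protein at its beak, had 47.9, 31.6 and 28.3 CPM in rod TRAP and 121, 70.0 and 55.5 CPM in retina, a log2 fold change of −1.14 (SE 0.28, adjusted p = 0.0042). In both genes the fractions did not overlap and replicate 1 was the highest library of each. Rps21, Rps27 and Rpl32 stood at −1.15, −1.15 and −1.11. Rpl37 stood at −1.05 (SE 0.21, adjusted p = 0.00127) and Rpl22 at −0.06 (SE 0.25, adjusted p = 0.854). The count of members called was 36 without rod TRAP replicate 2 and also 36 without the library labelled replicate 3, and 64 without the retina library labelled replicate 3. With the libraries of the fractions paired by number, 71 members were lower and 1 was higher.

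Coding length went with the size of the fall. Across 82 members with a coding sequence in GENCODE M21, Spearman's correlation of log2 fold change with coding length was 0.446 in control and 0.458 in knockout, where it was 0.142 and 0.147 across all other genes. These are correlations across genes that share libraries and are given as a description. In control, the 11 members of up to 300 coding bases had a median of −1.17, against −0.44 for the 272 other genes of that length. The 29 members of 300 to 450 bases had −1.0 against −0.25, the 19 of 450 to 600 bases −0.76 against −0.18, and the 20 of 600 to 900 bases −0.62 against −0.16. Members thus lay below other genes in each of these ranges. Taken over all 5702 other genes no longer than the longest member, Rpl4 with 1257 coding bases, the median was −0.16 against −0.91 for the members. The part of length in the result was not tested beyond these values. By the start letters shown above, medians differed little. The 21 members with the run had a median of −1.03 in control, all 21 lower, and the 36 without it −0.91, with 29 lower. In knockout the medians were −0.85, with 14 of 21 lower, and −0.69, with 24 of 36 lower, and the difference was not tested.

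Genes around the ribosome did not follow the members as a group in control rod TRAP. Of all 16286 genes tested in this comparison, 36.6% were higher and 38.8% lower. Among ribosomal proteins with other names, Fau fell by 0.74 on the log2 scale (SE 0.15, adjusted p = 0.000728) and Rack1, a scaffold on the small subunit, fell by 0.67 (SE 0.15, adjusted p = 0.00105). Of 18 TOP messages of other names, which include both, 5 were higher and 7 lower, with a median of −0.19. The elongation factor genes Eef1b2, Eef1g and Eef2 fell by 0.92, 0.82 and 0.28, while the poly(A) binding protein Pabpc1 rose by 1.34 and the initiation factor gene Eif3e by 1.52 on the log2 scale. Mitochondrial ribosomal proteins were divided, with 19 higher and 14 lower of 77 tested and a median of 0.04. Of 32 ribosome biogenesis genes, 22 were higher and 2 lower, with a median of 0.58. Nucleolin (Ncl) rose by 3.02 (SE 0.18, adjusted p = 8.24e-09) and Nop58, a core protein of box C/D particles, rose by 3.07 (SE 0.18, adjusted p = 7.47e-09). Of 23 tested genes that control translation of ribosomal protein messages, 11 were higher and 8 lower. Larp1 rose by 0.87 (SE 0.17, adjusted p = 0.000365), the S6 kinase gene Rps6kb1 rose by 2.89 (SE 0.18, adjusted p = 1.21e-08) and Eif4ebp2, a repressor of cap-dependent initiation, fell by 0.93 (SE 0.11, adjusted p = 8.12e-06). In knockout, the same lists gave 5 higher and 2 lower of 18 TOP messages, 18 and 5 of 77 mitochondrial ribosomal proteins, 17 and 0 of 32 biogenesis genes, and 8 and 8 of 24 control genes. Of all genes tested in knockout, 30.4% were higher and 33.7% lower.

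To see whether ribosomal protein messages in rods differed with Abca4, knockout was compared with control in rod TRAP. They were mostly a little above control, and a single member passed the test, on the lower side. Of 86 members tested, 82 had a log2 fold change above 0, where 50.3% of all 13104 genes did, and the median was 0.22 against 0.00 over all genes. None was higher at an adjusted p under 0.05, where 0.733% of all genes were higher, and 1, Rpl29, was lower, where 0.397% of all genes were lower. At an unadjusted p under 0.05 there were 11 members and 1368 genes in all. On the log2(TPM + 1) scale, Rplp1 was higher, at 0.50 (SE 0.09, adjusted p = 0.04598), and Rpl29 and Rps13 were lower. By subunit, the median was 0.21 for the large and 0.25 for the small. Knockout and control libraries were fully separate for 10 members on the higher side (6.94% of all genes), namely Rpl5, Rpl7, Rpl7l1, Rpl13, Rpl18, Rplp0, Rps3a2, Rps6, Rps26 and Rps27rt, and for Rpl29 and Rpl34 on the lower side (10.9% of all genes). In TPM, 19 of 85 members were fully separate on the higher side (4.53% of all genes) and 4, Rpl29, Rpl34, Rps7 and Rps13, on the lower side (7.52% of all genes). The members share these 6 libraries and are not independent of each other. Without the library labelled knockout replicate 1 the median was 0.07, and without that labelled replicate 3 it was 0.31.

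The members below were named as stalk genes, paralogs or for their part in the assays, and none passed the test in scaled counts. Rps27rt, Rplp0 and Rpl7l1 were also named for a small interaction p, which draws on these same values. Rps27rt had 8.80, 6.07 and 6.17 CPM in knockout rod TRAP and 3.72, 4.5 and 5.61 CPM in control, a log2 fold change of 0.57 (SE 0.21, adjusted p = 0.339). Rplp0 had 211, 177 and 181 CPM in knockout and 164, 167 and 174 CPM in control, a log2 fold change of 0.20 (SE 0.10, adjusted p = 0.529). The genotypes did not overlap for either gene, but the gap for Rplp0 was narrow. Rpl7l1 had 59.9, 60.9 and 61.6 CPM in knockout and 52.3, 51.0 and 50.4 CPM in control, a log2 fold change of 0.28 (SE 0.08, adjusted p = 0.204). Its libraries were the tightest within groups of the 3, and it did not depend on replicate 1. The stalk gene Rplp1 had 198, 146 and 131 CPM in knockout and 122, 121 and 134 CPM in control, a log2 fold change of 0.35 (SE 0.15, adjusted p = 0.468). Rpl22 stood at 0.09 (SE 0.14, adjusted p = 0.867). This is the whole Rpl22 message, and the amount of tagged protein was not measured. Rpl37 stood at 0.23 (SE 0.13, adjusted p = 0.590). With near copies added, the stalk gene Rplp2 stood at −0.03, and the paralogs Rps4l, Rps27l and Rpl22l1 at −0.02, 0.07 and 0.16. Of the other lists, 1 of 77 mitochondrial ribosomal proteins was higher, Mrpl3 at 0.51 (SE 0.10, adjusted p = 0.0374), and 1 of 21 control genes was lower, the transcription factor gene Mycn at −1.16 (SE 0.18, adjusted p = 0.01405). No TOP message, biogenesis gene or other ribosomal protein passed. Of all 13104 genes tested, 0.733% were higher and 0.397% lower.

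In whole retina no member differed detectably between genotypes in scaled counts. Of 88 members tested none passed, with 0.0884% of all 16964 genes higher and 0.0177% lower. At an unadjusted p under 0.05 there were 2 members, Rpl29 and Rpl34, and 2034 genes in all. On the log2(TPM + 1) scale, Rpl29 and Rps13 were lower. The median was −0.05 over members and −0.02 over all genes. Libraries did not overlap for 1 member, Rpl34, on the lower side (9.6% of all genes) and for none on the higher side (10.1% of all genes). In TPM, 8 of 85 members were separate on the lower side (6.69% of all genes), namely Rpl3, Rpl10, Rpl13a, Rpl29, Rpl34, Rps7, Rps13 and Rps23rg1, and 1, Rpl13, on the higher side (4.85% of all genes). The median SE of a member was 0.26 in retina and 0.13 in rod TRAP, so differences of this size were harder to see in retina. The median was −0.30 without knockout replicate 1 and 0.16 without the library labelled knockout replicate 3, so that its sign depended on single libraries. No gene of the other lists passed in retina.

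Whether the genotype difference was unlike in the 2 fractions was tested over all 12 libraries. None of 88 members passed, in a fit that called 0.00579% of all genes in the positive direction and 0% in the negative, and none had an unadjusted p under 0.05, against 1952 of all 17273 genes. The median of the members was 0.25 and that of all genes 0.01. The 4 members with the smallest p were Rps27rt at 0.58 (SE 0.36, adjusted p = 0.557), Rplp0 at 0.41 (SE 0.26, adjusted p = 0.559), Rpl36 at 0.42 (SE 0.28, adjusted p = 0.583) and Rpl7l1 at 0.24 (SE 0.16, adjusted p = 0.586). For Rplp0, knockout retina had 351, 291 and 229 CPM and control retina 399, 253 and 382 CPM, so that the groups overlapped in retina. The median was 0.11 without both libraries labelled knockout replicate 3 and 0.34 without both labelled replicate 1.

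**Figure D3:**
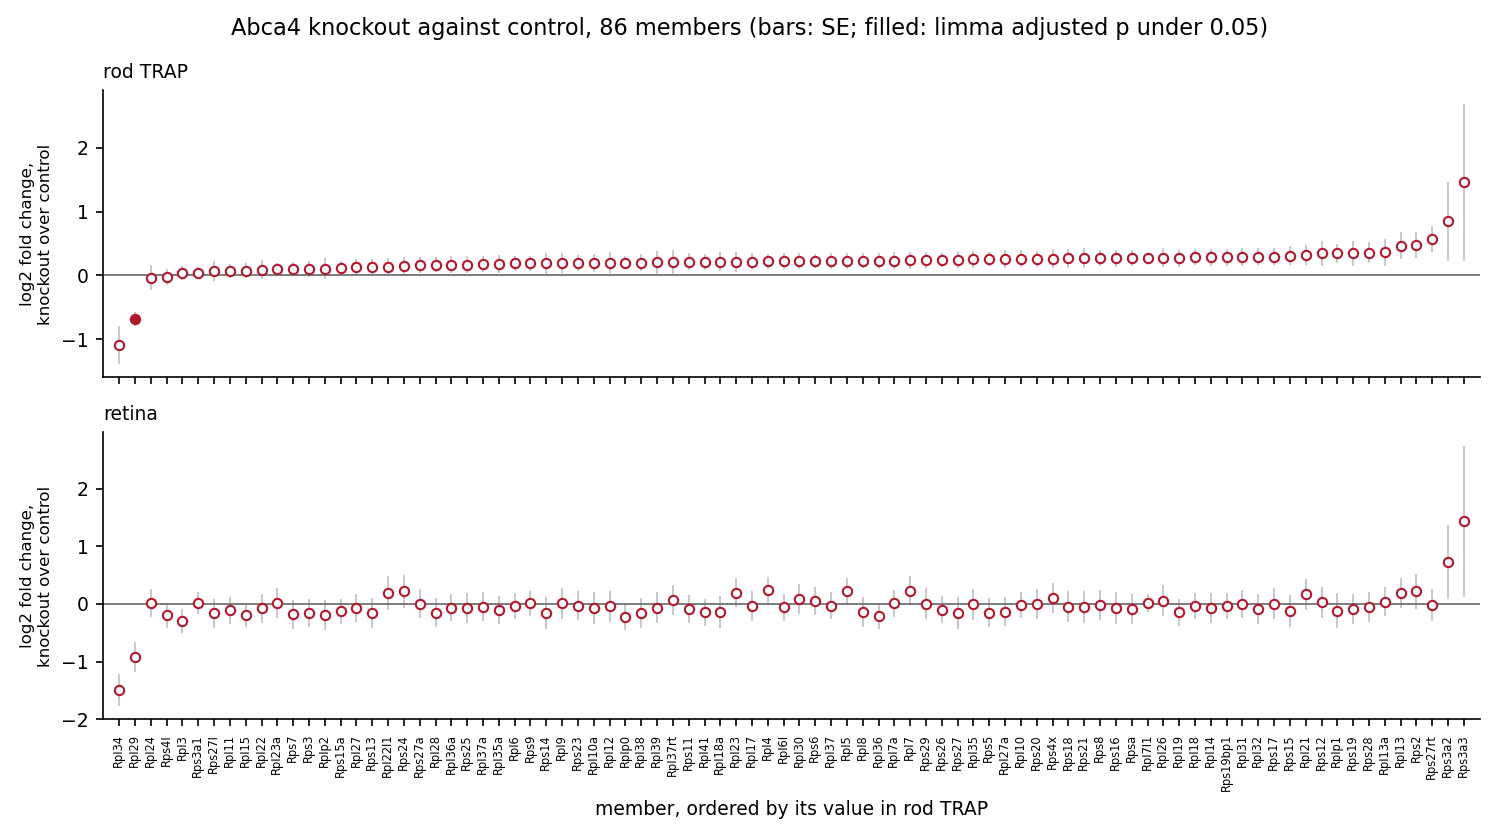
Log2 fold change of Abca4 knockout over control for the 86 members tested in rod TRAP, in rod TRAP (top) and retina (bottom), ordered by the value in rod TRAP, with SE bars and a filled point where the adjusted p was under 0.05. Nearly all points in rod TRAP lie slightly above 0 around the median of 0.22, Rpl34 and Rpl29 lie below 0 in both fractions, and Rps3a2 and Rps3a3 lie highest with wide bars.

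Rpl29 and Rpl34 lay far below the other members in both fractions. Rpl29, a basic protein of the large subunit, had 45.1, 37.6 and 38.3 CPM in knockout rod TRAP and 62.0, 66.1 and 70.3 CPM in control, a log2 fold change of −0.68 (SE 0.11, adjusted p = 0.0162). In retina it had 89.4, 52.2 and 41.1 CPM in knockout and 120.2, 89.3 and 125 CPM in control, a log2 fold change of −0.92 (SE 0.27, adjusted p = 0.3998). The genotypes did not overlap in rod TRAP, and touched in retina, where knockout replicate 1 reached the lowest control library. The call of Rpl29 in rod TRAP was lost without knockout replicate 2 (adjusted p = 0.0576) or any control library (adjusted p from 0.0798 to 0.128), and held without the library labelled knockout replicate 3 (adjusted p = 0.0337). Over all alternatives run, its adjusted p ranged from 1.7e-06 to 0.343. Rpl34, also of the large subunit, had 11.4, 17.3 and 31.0 CPM in knockout rod TRAP and 39.0, 38.7 and 45.0 CPM in control. Its log2 fold change was −1.10 (SE 0.30, adjusted p = 0.218) in rod TRAP and −1.49 (SE 0.28, adjusted p = 0.142) in retina, where knockout had 19.9, 30.7 and 46.9 CPM and control 101, 72.9 and 90.1 CPM. In both fractions the library labelled knockout replicate 3 was nearest to control. Without it, Rpl34 passed in rod TRAP, at −1.45 (adjusted p = 0.0006), and in retina, at −1.81 (adjusted p = 0.0115). Rpl34 lies on chromosome 3, as do Abca4 and the members Rps3a1 and Rps27. Whether this location plays a part was not tested.

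Ribosomal protein genes have many near copies in the genome, most of them processed pseudogenes, and reads of a parent and its copies are hard to tell apart. In GENCODE M21, 83 parents had 998 copies with at least 90% identity over at least 80% of the coding length, of which 940 were in the scaled count table. How reads that fit several places were assigned is not given in the sources used here. Where Rpl29 and Rpl34 were lower in knockout, near copies of both were higher. In rod TRAP, 8 of 238 copies tested were higher in knockout and none was lower, and they were copies of Rpl29 (Gm8210, Gm13841 and Gm14036), of Rpl34 (Rpl34-ps1 and Gm10154), of Rplp1 (Gm11942), and Rpl15-ps2 and Rps15a-ps6. In retina, 1 of 296 was higher, Gm8210. Of all genes tested, 0.733% were higher in rod TRAP and 0.0884% in retina. Gm8210, on chromosome 1 where Rpl29 is on chromosome 9, had 396, 319 and 308 scaled counts in knockout rod TRAP and 40, 39 and 44 in control. Its log2 fold change was 2.82 (SE 0.16, adjusted p = 1.09e-05) in rod TRAP and 2.70 (SE 0.25, adjusted p = 0.00314) in retina. Every knockout library was thus above every control library, that labelled replicate 3 included.

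The TPM table shows the split between parent and copy library by library. Rpl29 stood at 236, 216 and 208 TPM in knockout rod TRAP and 344, 366 and 404 in control, while Gm8210 stood at 212, 194 and 177 in knockout and 1.0, 0 and 0.6 in control. Rpl34 stood at 41.1, 121 and 215 TPM in knockout rod TRAP and 259, 268 and 300.1 in control, while Rpl34-ps1, on chromosome 6, stood at 360.2, 221 and 90.3 in knockout and was listed at 0 in all control libraries. For Rpl34, the knockout library with the lowest parent had the highest copy, and the reverse. Summed over the parent and all copies, the Rpl34 family had 404, 348 and 305 TPM in knockout rod TRAP and 260.1, 268 and 300.1 in control. The Rpl29 family had 467, 428 and 403 TPM in knockout rod TRAP and 359.7, 381 and 427 in control. With near copies added before the fit, Rpl29 had a log2 fold change of 0.32 (SE 0.11, adjusted p = 0.343) in rod TRAP and 0.08 in retina, and Rpl34 had 0.28 (SE 0.13, adjusted p = 0.493) and 0.17. Neither family was then lower in knockout, and no member was called in rod TRAP with its copies added.

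The same split was seen for 3 more parents, described here after their values were seen. Rps13, a core small subunit protein, stood at 110.3, 109.7 and 120.3 TPM in knockout rod TRAP and 219, 241 and 233 in control. Its copy Rps13-ps1 stood at 283, 231 and 206 TPM in knockout and 0, 30.8 and 71.0 in control. On the log2(TPM + 1) scale Rps13 was lower in knockout rod TRAP, at −1.02 (SE 0.08, adjusted p = 0.000245), and in retina, at −1.46 (SE 0.16, adjusted p = 0.000591), whereas in scaled counts it stood at 0.13 (SE 0.12, adjusted p = 0.764) and −0.16 (SE 0.27, adjusted p = 0.793). For Rpl3, close to the peptidyl transferase centre, knockout replicate 2 was apart from replicates 1 and 3. In rod TRAP Rpl3 stood at 221, 633 and 316 TPM in knockout, and its copy Rpl3-ps1 on chromosome X at 464, 0.3 and 285. In control, Rpl3 stood at 525, 522 and 581 TPM and Rpl3-ps1 at 0.3 or less. For Rps3a1, only the libraries labelled knockout replicate 1 held its copies Rps3a2 and Rps3a3, at 165 and 87.1 TPM in rod TRAP and 278 and 161 in retina, where all other libraries had 0.6 or less. These 2 copies are members, and that library is the one that stands apart behind their wide bars in the genotype plot. In scaled counts, Rps3a3 had 599 in that rod TRAP library and 28 to 39 in the other 5. Rps7 showed no such split. With its copies added it had 243, 329 and 258 TPM in knockout rod TRAP and 354, 380 and 366 in control. In retina it had 420, 590 and 422.5 TPM in knockout and 892, 655 and 824 in control. Its family stood at 0.10 (SE 0.10, adjusted p = 0.777) in rod TRAP and −0.19 (SE 0.25, adjusted p = 0.722) in retina in scaled counts. The cause was not tested.

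Stretches of 60 coding bases of parent and copy show how little separates them. They are shown because parent and copy moved in opposite directions between genotypes in the TPM table. For Rpl29, the copies Gm13841 and Gm14036 were also higher in knockout in scaled counts. Capitals mark the bases that differ, and positions are counted from the first base of the start codon. The whole coding sequences differ at 3 of 480 bases for Rpl29 and Gm8210, 2 of 351 for Rpl34 and Rpl34-ps1, and 2 of 453 for Rps13 and Rps13-ps1. Sequences are from the transcripts of GENCODE M21 on GRCm38.
Rpl29, bases 13 to 72: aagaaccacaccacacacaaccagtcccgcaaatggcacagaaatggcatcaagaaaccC
Gm8210, the same bases: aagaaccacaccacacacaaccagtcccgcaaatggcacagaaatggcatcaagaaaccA
Rpl34, bases 73 to 132: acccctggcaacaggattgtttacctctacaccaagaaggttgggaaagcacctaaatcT
Rpl34-ps1, the same bases: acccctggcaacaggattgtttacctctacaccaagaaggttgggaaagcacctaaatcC
Rps13, bases 370 to 429: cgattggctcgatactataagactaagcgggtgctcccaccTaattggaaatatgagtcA
Rps13-ps1, the same bases: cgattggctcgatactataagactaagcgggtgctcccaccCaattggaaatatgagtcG
Each pair is identical over long stretches, and a read from such a stretch fits both. Whether the reads of the knockout libraries carry the bases of the copy was not tested, since no alignments were examined.

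**Figure D4:**
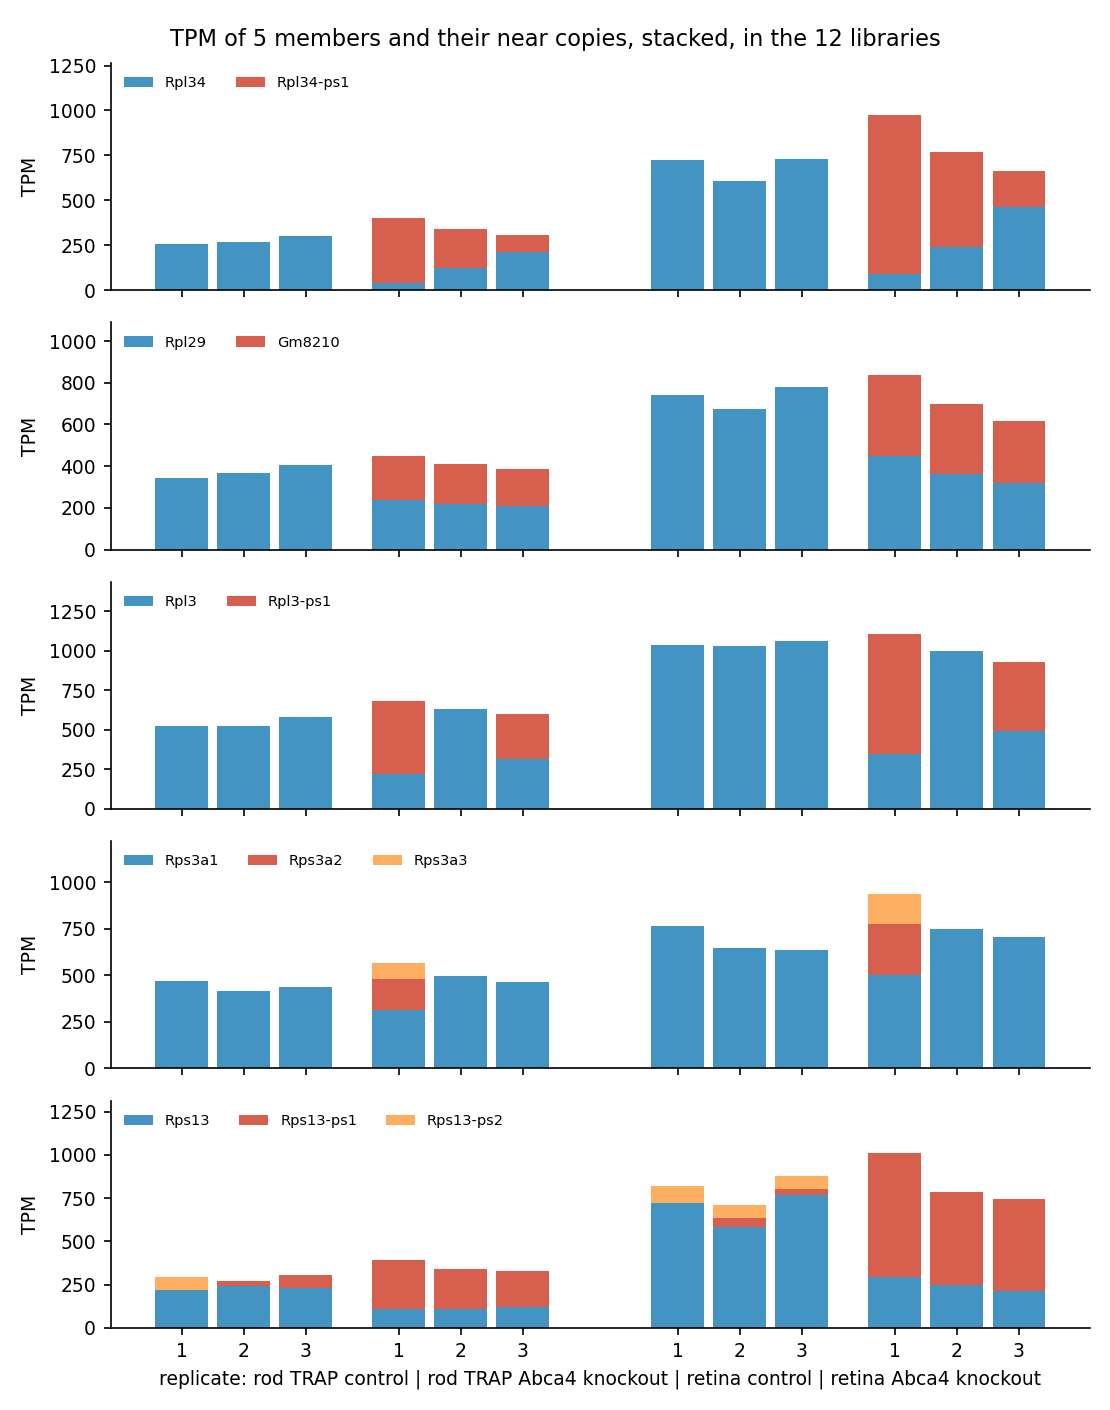
TPM of 5 members (blue) with near copies stacked on top (red and orange) in the 12 libraries, ordered as rod TRAP control, rod TRAP knockout, retina control and retina knockout with replicates 1 to 3 in each. Control libraries are almost wholly blue for Rpl34, Rpl29, Rpl3 and Rps3a1, and partly red or orange for Rps13. In knockout, a larger part is red in all 3 libraries for Rpl34, Rpl29 and Rps13, in replicates 1 and 3 for Rpl3, and in replicate 1 alone for Rps3a1.

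The level of a gene also differed between the deposited tables, for single genes more than for families with their near copies summed. Scaled counts per coding base and TPM differed by over 1.5 on the log2 scale, after centring, for 15 of 82 members, and for 6 of 81 families once near copies were summed. The SD of this difference was 1.76 over members and 0.90 over families. With near copies summed, the difference was still 4.62 for Rpl13a, 3.11 for Rpl24 and 2.23 for Rps10, and the cause was not tested. Rps10 was the extreme case, with a mean of 2.67 scaled counts in control rod TRAP but 423 TPM, while its copy Rps10-ps2 had a mean of 276 scaled counts and was listed at 0 TPM. Rps27 and Rps27rt were exchanged, with means in control retina of 3841 scaled counts and 40.7 TPM for Rps27 and of 332 scaled counts and 2542 TPM for Rps27rt. Rpl12 and Rpl5 were likewise low in TPM, and their copies Gm10275 and Gm15500 stood at 844.5 and 481 TPM in control retina. In TPM, the spread between genes was smaller for families than for single genes, with an SD of log2 mean TPM of 0.59 over 77 subunit families and 1.22 over the 77 subunit genes. Families ranged from 285 to 1943 TPM with a median of 744. The fold changes were less touched than the levels. The sign was the same on both scales for 81 of 84 members in the control fraction comparison, 82 of 84 in the knockout fraction comparison, 73 of 83 between genotypes in rod TRAP and 70 of 85 in retina.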

How the data were processed

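Cycloheximide was perfused to keep ribosomes in place before retinas were frozen, and cDNA was made with a low-input kit from 5 ng of lysate RNA or 10 ng of TRAP RNA, sheared and made into libraries. The submitters' processing notes name CASAVA 1.8.2, HISAT2, DESeq2, edgeR and the GRCm39 build, and give no roles for them. The authors deposited a table of scaled counts, a score made by multiplying the reads of each library by 1 factor and rounding, with totals of 17096515 to 17097707 in rod TRAP and 17860761 to 17862326 in retina. They also deposited TPM per gene and library, from which the unscaled depth cannot be read. How multi-mapping reads and strand were treated is not given in the sources used here.

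A test of raw counts had been planned for raw counts only. As the table holds a score, limma 3.58.1 (trend, robust, R 4.3.3) was fitted to log2(CPM + 0.5) after rescaling by the trimmed mean of M values (trims 0.3 and 0.05), over all genes with at least 10 scaled counts in at least 3 libraries of the fit. Tests were two-sided with Benjamini-Hochberg adjustment over all genes tested and a threshold of 0.05. Each fit used its own 6 libraries, except the interaction, which used all 12. The CPM printed per library and the overlaps came from a rescaling of all 12 together. Folds on this scale understate changes of low genes. The fit was tested on simulated data with known changes. TPM was tested as log2(TPM + 1).

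Same-numbered rod TRAP and retina libraries deviated together within genotype (correlations of 0.27, 0.20 and 0.16 in control and 0.43, 0.21 and 0.37 in knockout), so their numbers were taken to pair them, as read from the data. Libraries of unlike number had −0.16 to −0.01 in control and −0.46 to 0.23 in knockout. The pairing was least clear for knockout rod TRAP replicate 2, which had 0.23 with retina replicate 3. Alternatives were other scalings, pseudocounts, filters and fits, TPM, each library left out, and a replicate block.

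Near copies were found with blastn 2.17.0 in GENCODE M21 (GRCm38), by symbol, and sequences were read from it and from RefSeq tables of GRCm38.p6. As the files' build is GRCm39, no positions from the files are given. Other steps used Python 3.11.15 with pandas 2.3.3, numpy 2.4.6, scipy 1.17.1, biopython 1.88 and matplotlib 3.10.9. Members and gene lists were chosen with earlier results of these data known. Genes named were all called members of a comparison where at most 12 were called, otherwise the 6 largest rises and falls, the 5 highest and 5 lowest members in TPM, Rpl22, Rpl22l1, Rpl37, Rpsa, the stalk genes, paralogs, X-linked members, the 4 smallest interaction p, Fau and Rack1. A further gene is not reported here. Not every value of every such gene is printed, and others are named where a count is explained.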

Additional observations from a re-analysis of the deposited data

How the results depend on the processing

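Of 543 alternative values computed for counts, medians, named genes and sums, 483 kept their direction and their side of the threshold or moved less than the spread. For the 15 results on genes named in the fraction comparisons, 257 of 261 alternative values had the same sign. The counts in the fraction comparisons stayed within 1.5 times, from 70 to 76 in control and 36 to 64 in knockout when leaving out 1 library each. The count of members called between genotypes in rod TRAP, 1 of 86, was 3 with log2(TPM + 1) (Rplp1 higher, Rpl29 and Rps13 lower), 2 with a replicate block, and 0 with limma without trend and robust settings, in 1 fit of all 12 libraries and with near copies summed. It ranged from 0 to 2 when leaving out 1 library. In retina, the count of 0 became 2 with log2(TPM + 1) (Rpl29 and Rps13), 1 with no filter on low values and 1 with a replicate block (Rpl34 in both), and ranged from 0 to 1 when leaving out 1 library. Between genotypes same-numbered libraries did not deviate together, so the block there pairs by number only. The block changed no other named call and no other count by over 1.5 times, giving 77 calls in control and 72 in knockout for the fractions and 0 for the interaction. The interaction stayed at 0 in all alternatives run.

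Signs turned for Rpl4, Rpl5 and Rps4l in the control fraction comparison under the authors' scaling alone (−0.25, −0.26 and −0.33) and for Rps4l with log2(TPM + 1) (−0.040). Under the authors' scaling the median of all genes was −0.62 in control and −0.49 in knockout. They also turned for Rpl29 (0.32 in rod TRAP, 0.079 in retina) and Rpl34 (0.28 and 0.17) with near copies summed, which adds the copies by construction. The summed level of rod TRAP against retina in control moved from 38.9% to 44.7% with TPM, and the cause was not tested. Near copies, the fits without both libraries labelled knockout replicate 1 or 3, and sums with copies added were chosen after seeing the data. With 3 libraries a group and median SE of 0.13 in rod TRAP and 0.26 in retina, differences the size of the genotype medians could not be told from 0 for single members.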
